A study of Homo sapiens with 15 samples.

Results

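HEK293T cells transfected with siRNA against DcpS were set against HEK293T cells transfected with a non-silencing siRNA. The comparison took the arrays labelled with these siRNAs, 3 for DcpS and 3 for non-silencing, 6 of the 15 arrays of the series. HEK293T is a transformed human embryonic kidney line that is easily transfected. All cells of both groups received 1 ug per mL of actinomycin D, an inhibitor of transcription, for the last 4 hours, starting 48 hours after transfection, and total RNA was measured on Affymetrix whole-transcript arrays. The other 9 arrays came from cells given siRNA against LOC550643 (a pool of 4 siRNAs), Dcp2 or GAPDH and the same actinomycin D treatment, with 3 arrays each. The design text calls DcpS a negative control, a decay protein of another pathway than the one under study. It was expected to be unrelated to the response studied.

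DcpS is the scavenger decapping enzyme. When the RNA exosome has degraded an mRNA from its 3′ end, a short capped remnant is left, and DcpS hydrolyses it so that free cap does not accumulate and occupy cap-binding proteins. Dcp2, in contrast, removes the cap from a long mRNA and opens it to the 5′ exonuclease XRN1. After actinomycin D, an mRNA level reflects both the level reached before the block and the decay during it, and the arrays do not separate these.

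Levels are log2 units as deposited, in which 1 unit is a doubling, and a log2 change is the DcpS mean minus the non-silencing mean. The values were normalized so that arrays have like distributions, so a shift of all transcripts would not be seen. Of 53617 probe sets, 16098 had a gene name, and 14884 genes were tested, each by the probe set with the highest mean over the 15 arrays. No probe set was named for DCPS, and the knockdown itself is therefore not analysed here. A gene was called when limma's moderated test, fitted over all 15 arrays, gave a Benjamini-Hochberg adjusted p under 0.05. The labels do not say that a group's 3 arrays are separate cultures, and the p-values therefore reflect only how these arrays spread, which may be technical. Arrays are called by the replicate number of their label. Array 1 of both groups stood apart on the first principal component of all genes (19.7% of the variance), at -19.5 for DcpS and -20.2 for non-silencing, against -2.35 and -1.86 for the other DcpS arrays and -3.54 and 1.66 for the other non-silencing arrays. On the second component (14.2%) the DcpS arrays lay between -17.0 and -12.7 and the non-silencing arrays between 2.76 and 7.25.

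The cell line label was set against a list of HEK293 markers. Of 12 listed genes, 8 had a named probe set. The RNA-binding protein gene IGF2BP1 averaged 9.46 log2 units in DcpS and 9.48 in non-silencing arrays, and the keratin gene KRT18 8.72 and 8.69. Of the 8, 0 were called higher and 1 lower, beside 1.76% and 1.85% of all genes tested. A negative change was found in 5, 3 had an unadjusted p under 0.05 in limma's test and the median change was -0.02. The most negative change was that of IRS4, an insulin receptor substrate, at -0.66 (limma adjusted p = 0.196), with overlapping groups. LIN28B, which blocks maturation of let-7 microRNAs, was at 8.00, 8.23 and 8.06 in DcpS arrays and at 8.44, 8.66 and 8.58 in non-silencing arrays. It was called lower by 0.46 log2 units (SE 0.10, limma adjusted p = 0.0153), but not without DcpS array 1 or 3 or non-silencing array 2 or 3. Of the markers of other cell types, 3 blood, 4 endothelial, 2 fibroblast and 4 hepatocyte genes were measured. Their list means were 4.30, 4.03, 3.08 and 4.27 log2 units in DcpS arrays and 4.26, 3.96, 2.68 and 4.34 in non-silencing arrays. Limma called 0 of these 13 genes, with 0, 0, 2 and 1 at an unadjusted p under 0.05, and the part of other cells in the results was not tested.

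With DcpS siRNA, 262 genes were higher than with non-silencing siRNA (1.76% of those tested) and 276 were lower (1.85%). Changes were mostly moderate, with a median size of 0.54 log2 units among the called genes. Of the called genes, 6 were higher and 12 lower by at least 1 log2 unit. The largest rises included the tropomyosin gene TPM4 and the lipid phosphatase gene MTM1. The largest falls included the membrane protein gene SHISA2, the Hippo pathway gene AMOT, the vesicle fusion ATPase gene NSF, the RNA-binding protein gene TARDBP and the cell death gene PMAIP1. The DcpS and non-silencing arrays did not overlap for 536 of the 538 called genes, beside 18.5% of all genes tested. Calling used the same arrays, so this separation is no further support. The genes named below for the largest changes were also picked among called genes whose groups did not overlap. The count of 538 (3.61% of those tested) was 276 without non-silencing array 2 and 344 without DcpS array 2. It was 104 when only the 6 arrays were fitted, 191 when those 6 were also blocked by replicate number, and 241 without array 1 of both groups.

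**Figure D1:**
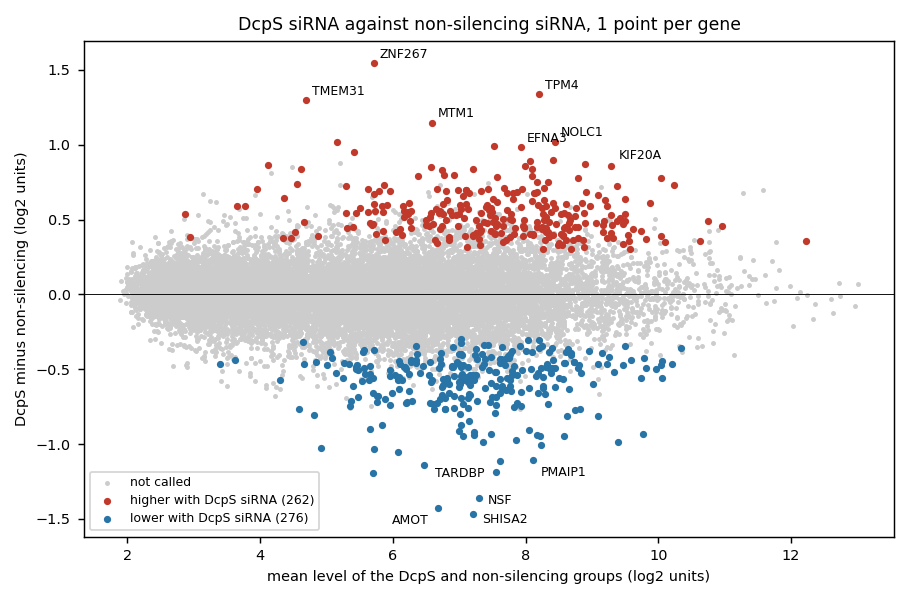
Log2 change (DcpS minus non-silencing, y axis) against the mean level of both groups (x axis, log2 units), 1 point per gene for 14884 genes. Red points are the 262 genes called higher with DcpS siRNA and blue points the 276 called lower, and most lie within 1 log2 unit of 0.

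The rise of TPM4, whose product stabilises actin filaments, was the second largest in size. Its level was 8.86, 8.76 and 9.01 log2 units in DcpS arrays and 7.35, 7.49 and 7.76 in non-silencing arrays, a log2 change of 1.34 (SE 0.11, limma adjusted p = 1.42e-05). Every DcpS array lay above every non-silencing array. Of 17 measured tropomyosin and actin filament genes, 1 was called higher and 1 lower, beside 1.76% and 1.85% of all genes. These were TPM4 and DIAPH1, a formin that builds unbranched actin filaments. The median change of the list was 0.00 log2 units, as it was over all genes. DIAPH1 was at 6.94, 7.07 and 6.93 in DcpS arrays and at 7.52, 7.51 and 7.52 in non-silencing arrays, a log2 change of -0.54 (adjusted p = 0.00314).

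ZNF267, a zinc finger gene, had the largest rise of all, 1.54 log2 units (SE 0.24, limma adjusted p = 0.00217). It varied widely within each group, at 6.07, 6.57 and 6.81 in DcpS arrays and 4.47, 5.13 and 5.22 in non-silencing arrays, yet the groups did not overlap. TMEM31, a transmembrane protein gene, was at 5.21, 5.62 and 5.21 in DcpS arrays and 3.86, 3.95 and 4.35 in non-silencing arrays, a 2.46-fold difference (limma adjusted p = 7.54e-05). The non-silencing values were dim, near the medians of those arrays over all probe sets (4.02, 4.04 and 4.05), so the fold is uncertain. NOLC1, a nucleolar phosphoprotein gene, varied little within either group, at 8.98, 8.90 and 8.99 against 7.92, 7.85 and 8.04 in non-silencing arrays (log2 change 1.02, limma adjusted p = 8.83e-06). The cathepsin gene CTSO had the same log2 change of 1.02, but it was at 5.88, 5.33 and 5.79 in DcpS arrays and 5.31, 4.48 and 4.16 in non-silencing arrays. Its adjusted p of 0.0474 missed the threshold without any one DcpS array or non-silencing array 2 or 3, and the values over all settings that lost the call were 0.0511 to 0.170.

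Several of the other large rises belonged to signalling, to the centrosome and to metabolism. NPPC, which encodes C-type natriuretic peptide, was at 7.73, 8.20 and 8.13 in DcpS arrays and 6.78, 7.00 and 7.31 in non-silencing arrays (log2 change 0.99, limma adjusted p = 0.00307). GPSM2, a spindle orientation protein gene, rose by 0.89 (8.45, 8.56 and 8.54 against 7.44, 7.72 and 7.73 in non-silencing arrays). CEP20, a centrosomal protein gene, rose by 0.87 (9.39, 9.28 and 9.34 against 8.36, 8.35 and 8.70). In both of these genes the lowest DcpS array lay above the highest non-silencing array. PAPSS2, which makes the sulfate donor for sulfation reactions, rose by 0.83 and HSPA2, an HSP70 family chaperone gene, by 0.80. BLOC1S6, a subunit of a complex that forms lysosome-related organelles, rose by 0.84 and MED11, a Mediator subunit gene, by 0.83. The RNA-binding protein genes G3BP2, a stress granule component, and HABP4 rose by 0.85 and 0.80. CNEP1R1, the regulatory subunit of a nuclear envelope phosphatase, rose by 0.86, but not in limma's test without DcpS array 2 or 3 or non-silencing array 1 (adjusted p 0.0544 to 0.0929 over the settings that lost it). G3BP2 was at an adjusted p of 0.0786 when only the 6 arrays were fitted.

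SHISA2, related to a frog protein that holds Wnt and FGF receptors back in the endoplasmic reticulum, had the largest fall. It was at 6.40, 6.35 and 6.66 log2 units in DcpS arrays and 7.75, 8.02 and 8.04 in non-silencing arrays, or 36.2% of the non-silencing level (log2 change -1.47, SE 0.11, limma adjusted p = 4.65e-06). GPR180, a membrane protein gene, was at 6.67, 7.19 and 7.00 in DcpS arrays and 8.18, 8.18 and 8.07 in non-silencing arrays, or 43.9% of that level (limma adjusted p = 2.63e-05). TARDBP, which encodes the splicing regulator TDP-43, was at 6.67, 7.07 and 7.43 in DcpS arrays and 8.00, 8.29 and 8.21 in non-silencing arrays. That was a log2 change of -1.11 (SE 0.17, limma adjusted p = 0.00169), with the DcpS arrays spread over more of the scale than the non-silencing arrays. Of 21 measured hnRNP and related RNA-binding protein genes, TARDBP was the only one called, beside 3.61% of all genes, and the list median was 0.03.

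Transcription factor and signalling genes were also among the large falls. MAF, a leucine zipper factor gene, was at 4.99, 5.33 and 5.26 in DcpS arrays and 6.24, 6.37 and 6.06 in non-silencing arrays (log2 change -1.03, limma adjusted p = 0.000514). HAND1, a basic helix-loop-helix factor gene of heart and placenta, was at 7.41, 7.32 and 7.37 in DcpS arrays and 8.34, 8.41 and 8.28 in non-silencing arrays (log2 change -0.98, adjusted p = 9.09e-05). The kinase gene HIPK3 fell by 0.99, and GRB2, the adaptor that links growth factor receptors to Ras, by 0.94. IGFBP5, a secreted binding protein of insulin-like growth factors, fell by 0.94 and the desmosomal cadherin gene DSC3 by 0.95. ELMOD2, which stimulates GTP hydrolysis by Arf family GTPases, fell by 1.14, and ZYG11B, a substrate receptor of a cullin ubiquitin ligase, by 1.01. ARRDC4, an arrestin-like regulator of glucose transport, fell by 0.95, DEPDC1B by 0.94 and FAM241A by 1.05. When only the 6 arrays were fitted, ZYG11B (adjusted p = 0.0563), ARRDC4 (0.0932) and DSC3 (0.0668) were not called by limma.

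The long noncoding RNAs HCG11 and NORAD were lower as well. NORAD, an abundant RNA that binds PUMILIO proteins, was at 8.97, 9.46 and 9.47 log2 units in DcpS arrays and 10.01, 10.39 and 10.29 in non-silencing arrays (log2 change -0.93, limma adjusted p = 0.00243). Array 1 was the lowest array of each group. HCG11 was at 5.48, 4.41 and 5.40 in DcpS arrays and 6.27, 6.63 and 5.97 in non-silencing arrays (log2 change -1.19, limma adjusted p = 0.0113), and it was not called without non-silencing array 2 (adjusted p 0.0660 to 0.106 over the settings that lost it).

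**Figure D2:**
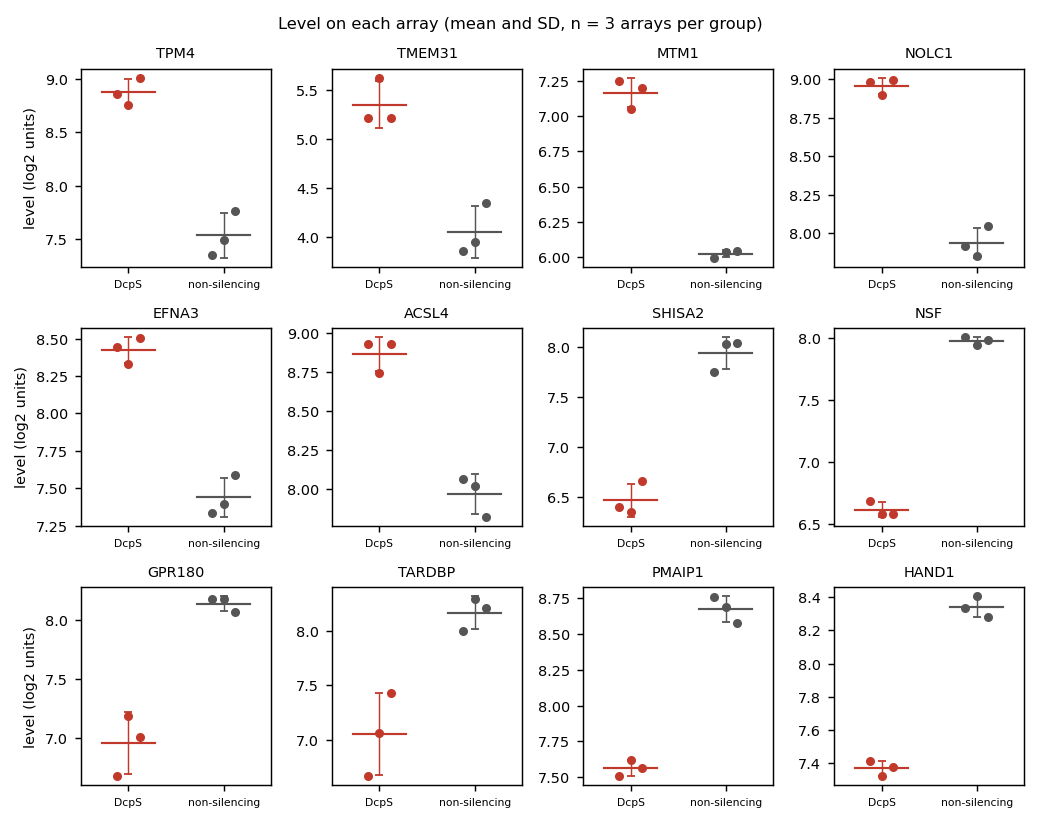
Level in log2 units (y axis) on each DcpS and non-silencing array for 6 genes that rose and 6 that fell, with the mean and SD of 3 arrays (line and bar). The DcpS points lie wholly above the non-silencing points for TPM4, TMEM31, MTM1, NOLC1, EFNA3 and ACSL4 and wholly below them for SHISA2, NSF, GPR180, TARDBP, PMAIP1 and HAND1. All were picked among called genes whose groups did not overlap.

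Genes of G2 and mitosis formed the group with the most rises among the 30 lists examined. These genes encode the cyclins, kinases, kinesins and kinetochore proteins that carry a cell from the end of DNA replication through division. Of 44 measured members (51 listed), 20 were called higher and 0 lower with DcpS siRNA, beside 1.76% and 1.85% of all genes, and 43 had a positive change. The list's median change was 0.44 log2 units, beside 0.00 over all genes. In 35 of the 44 every DcpS array lay above every non-silencing array, beside 9.29% of all genes. In bulk RNA, more cells in G2 and mitosis and more of these transcripts per cell cannot be told apart.

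The promoters of the 4 members with the largest changes are given to show the elements known from this class of gene. Promoters of many mitotic genes carry CCAAT boxes, bound by NF-Y, and a cell cycle homology element whose core reads TTTGAA. The 250 bases before each gene's start are from RefSeq (GRCh38.p14), 5′ to 3′ on the gene's strand, with capitals where CCAAT or TTTGAA occurs on either strand (read as ATTGG or TTCAAA on the other). Adjacent matches run together in HMMR, where CCAAT and ATTGG share bases. KIF20A is at chr5:138178862-138179111 (plus strand), CENPA at chr2:26785806-26786055 (plus), HMMR at chr5:163460382-163460631 (plus) and CCNA2 at chr4:121823884-121824133 (minus).
KIF20A: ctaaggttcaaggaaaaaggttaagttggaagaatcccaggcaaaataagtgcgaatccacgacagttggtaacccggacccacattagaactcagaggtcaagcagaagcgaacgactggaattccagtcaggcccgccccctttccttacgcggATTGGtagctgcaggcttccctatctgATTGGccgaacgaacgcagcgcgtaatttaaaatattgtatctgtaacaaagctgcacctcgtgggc
CENPA: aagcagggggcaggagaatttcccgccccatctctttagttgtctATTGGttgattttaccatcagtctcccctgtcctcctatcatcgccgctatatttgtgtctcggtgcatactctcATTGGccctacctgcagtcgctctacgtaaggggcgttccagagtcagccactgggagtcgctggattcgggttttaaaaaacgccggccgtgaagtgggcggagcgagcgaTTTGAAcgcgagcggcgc
HMMR: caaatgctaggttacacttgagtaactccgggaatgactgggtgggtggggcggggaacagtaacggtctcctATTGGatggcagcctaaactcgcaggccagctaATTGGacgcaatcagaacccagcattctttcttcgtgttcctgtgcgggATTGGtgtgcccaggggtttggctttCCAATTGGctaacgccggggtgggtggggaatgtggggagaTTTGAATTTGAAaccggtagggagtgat
CCNA2: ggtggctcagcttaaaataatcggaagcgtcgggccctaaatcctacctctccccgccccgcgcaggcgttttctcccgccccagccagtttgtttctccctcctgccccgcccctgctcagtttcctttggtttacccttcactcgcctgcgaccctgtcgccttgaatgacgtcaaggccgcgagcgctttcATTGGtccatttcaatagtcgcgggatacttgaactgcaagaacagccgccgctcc
CCAAT occurred on either strand 2 times in KIF20A, 2 in CENPA, 5 in HMMR (counting the overlapping pair as 2) and 1 time in CCNA2. TTTGAA occurred 1 time in CENPA, 2 times in HMMR and 0 times in KIF20A and CCNA2. Only these exact letters were counted, so a variant of the core would be missed. Of the 20 G2 and M genes called higher, 90.0% had CCAAT and 65.0% TTTGAA in this window. Of the 39 measured members that matched a promoter, 82.1% had CCAAT and 53.8% TTTGAA. Among the 10749 tested genes that matched a promoter these shares were 34.3% and 10.4%, and among all 27305 promoters 33.0% and 13.6%. They were 58.3% and 4.17% among the 24 matched members of the G1/S and DNA replication list, whose changes leaned negative. At least 2 matches to the NF-Y box occurred in 43.6% of matched G2 and M members and 41.7% of matched G1/S members. Among the tested genes that matched a promoter this share was 11.5%. Shares of the NF-Y box were above those of the tested genes in both lists, and the share of TTTGAA in the G2 and M list only. Whether either element bears on the changes was not tested. Matches are letters in a window, and binding was not measured.

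KIF20A, a kinesin needed for cytokinesis, changed most in this list. It was at 9.72, 9.68 and 9.75 log2 units in DcpS arrays and 8.48, 8.92 and 9.18 in non-silencing arrays (log2 change 0.86, SE 0.16, limma adjusted p = 0.00724). The DcpS arrays were nearly equal, whereas the non-silencing arrays were spread more widely, with array 1 lowest. CENPA, the histone variant of the centromere, was at 8.41, 8.54 and 8.53 in DcpS arrays and 7.42, 7.79 and 7.89 in non-silencing arrays (log2 change 0.79, limma adjusted p = 0.00393). HMMR, a hyaluronan receptor that also organises spindle microtubules, was at 9.48, 8.89 and 9.16 in DcpS arrays and 8.65, 8.28 and 8.27 in non-silencing arrays (log2 change 0.78, adjusted p = 0.00874). In HMMR array 1 was the highest array of each group. CCNA2, the cyclin of S and G2 phase, was at 10.39, 10.36 and 10.53 in DcpS arrays and 9.41, 9.70 and 9.85 in non-silencing arrays (log2 change 0.77, adjusted p = 0.00482). The centrosomal kinase gene NEK2 rose by 0.68 (limma adjusted p = 0.0110) and KIF18A, a kinesin that restrains chromosome movement, by 0.64 (adjusted p = 0.0153).

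Other members are named here after their values were seen. CCNB1, the cyclin that drives entry into mitosis, was at 8.97, 8.81 and 8.95 in DcpS arrays and 8.31, 8.24 and 8.37 in non-silencing arrays (log2 change 0.60, limma adjusted p = 0.00814). The mitotic kinase gene PLK1 rose by 0.49, the topoisomerase gene TOP2A by 0.46, the checkpoint kinase gene BUB1 by 0.54 and the aurora kinase gene AURKB by 0.36. CDK1, the partner of CCNB1, had a log2 change of 0.50 that was not called (limma adjusted p = 0.0693), with no overlap between the groups. FOXM1, a transcription factor of mitotic genes, was at 8.82, 8.66 and 8.64 in DcpS arrays and 8.83, 8.67 and 8.54 in non-silencing arrays, and the kinesin gene KIF11 had a log2 change of 0.06. CDC25B, a phosphatase that activates CDK1, was the only member with a negative change, at -0.17 (adjusted p = 0.407).

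**Figure D3:**
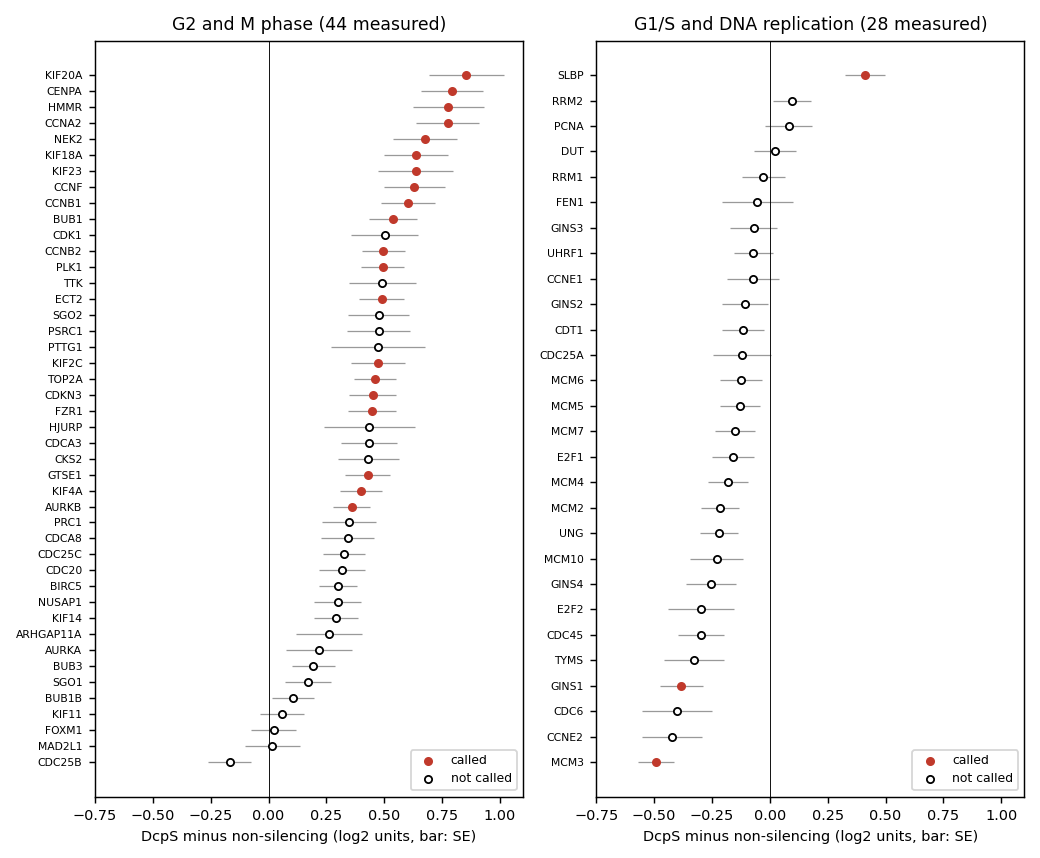
Log2 change (DcpS minus non-silencing, x axis, bars show the SE) for each measured gene of the G2 and M list (left, 44 genes) and of the G1/S and DNA replication list (right, 28 genes). Filled red points are called, and 43 of 44 G2 and M genes lie right of 0 whereas 24 of 28 G1/S genes lie left of it.

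The number of G2 and M members called depended on single arrays. The count was 18, 13 and 16 without DcpS arrays 1, 2 and 3, and 12, 14 and 23 without non-silencing arrays 1, 2 and 3, with 0 called lower in each case. The list median stayed between 0.33 and 0.50 over these settings. When only the 6 arrays were fitted 3 members were called, with replicate number as a block 8, and without array 1 of both groups 7. KIF20A, HMMR, NEK2 and KIF18A were not called in the fit of 6 arrays (limma adjusted p 0.0637, 0.0873, 0.113 and 0.0523), nor NEK2 without non-silencing array 1, nor KIF18A without DcpS array 3 or non-silencing array 1 or 2. Without array 1 of both groups KIF20A (0.0669), CCNA2 (0.0508) and KIF18A (0.0906) were not called. The mean level over the list's 44 genes was 8.91, 8.98 and 9.01 log2 units in DcpS arrays and 8.39, 8.59 and 8.68 in non-silencing arrays.

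Genes of the G1/S transition and DNA replication leaned the other way. Of 28 measured members (51 listed), 1 was called higher and 2 lower, beside 1.76% and 1.85% of all genes, and 24 had a negative change with a median of -0.14 log2 units. In 11 every DcpS array lay below every non-silencing array, beside 9.2% of all genes. When only the 6 arrays were fitted with a replicate block, 0 were called in either direction (limma). MCM3, a subunit of the replicative helicase, was at 9.55, 9.53 and 9.61 in DcpS arrays and 10.04, 10.09 and 10.04 in non-silencing arrays (log2 change -0.49, SE 0.08, limma adjusted p = 0.00221, and 0.0556 in the fit of 6 arrays with a replicate block). GINS1, a further subunit of that helicase, fell by 0.38, a call lost without DcpS array 1 or 2 or any one non-silencing array (limma adjusted p 0.0663 to 0.164 over the settings that lost it). SLBP, which binds the stem-loop of histone mRNAs, went against the list, at 9.47, 9.48 and 9.52 in DcpS arrays and 9.10, 8.97 and 9.16 in non-silencing arrays (log2 change 0.41, limma adjusted p = 0.0127). Without non-silencing array 2 it was not called (adjusted p 0.0651 to 0.0929 over the settings that lost it). The mean level over the list was 8.31, 8.32 and 8.38 in DcpS arrays and 8.45, 8.49 and 8.52 in non-silencing arrays.

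**Figure D4:**
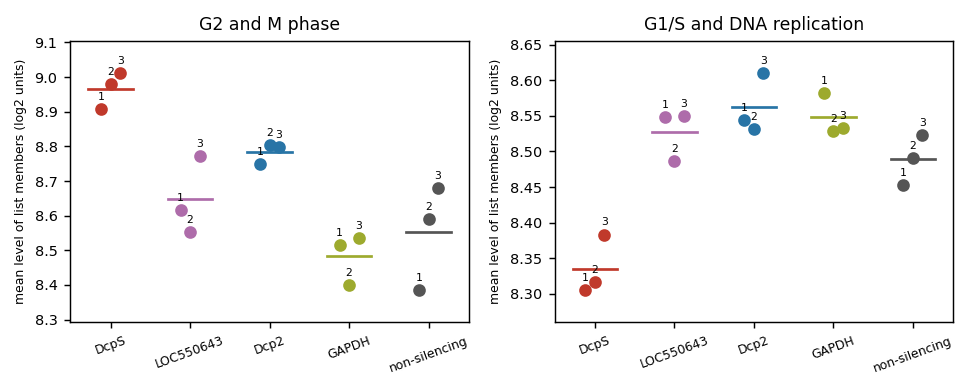
Mean level in log2 units (y axis) over the measured G2 and M genes (left) and G1/S genes (right) on each array of the 5 siRNA groups, with replicate numbers above the points and lines at the group means. The DcpS arrays lie highest in the left panel, between 8.91 and 9.01, and lowest in the right panel, between 8.31 and 8.38.

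Membrane fusion genes moved in both directions. A vesicle fuses with its target when SNARE proteins on both membranes zip together, and the ATPase NSF then pulls the SNAREs apart for reuse. NSF was at 6.68, 6.58 and 6.58 log2 units in DcpS arrays and 8.01, 7.94 and 7.98 in non-silencing arrays, or 38.9% of the non-silencing level (log2 change -1.36, SE 0.13, limma adjusted p = 3.51e-05). Of 30 measured genes of this list (40 listed), 6 were called lower and 2 higher, beside 1.85% and 1.76% of all genes, with a median change of 0.04. Of the vesicle SNAREs, VAMP1 was at 6.26, 6.43 and 6.54 in DcpS arrays and 6.98, 7.33 and 7.22 in non-silencing arrays (log2 change -0.76, limma adjusted p = 0.00144). VAMP2 fell by 0.60 and VAMP4 by 0.73. SEC22B, a SNARE of the endoplasmic reticulum, and VAMP7, a lysosomal one, were at -0.49 and -0.47 (adjusted p 0.0133 and 0.0153) and are named after their values were seen. The endosomal syntaxin gene STX12 rose by 0.58 (limma adjusted p = 0.00384) and STXBP3, a syntaxin-binding protein gene, by 0.50 (adjusted p = 0.0291). The vesicle SNARE gene VAMP3, in contrast, had a log2 change of 0.25 that was not called.

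Of these calls, those of NSF, VAMP1 and STX12 held without each of the 6 arrays in turn and in the fit of 6 arrays alone. STX12 was lost when those 6 were fitted with a replicate block (limma adjusted p = 0.0556), where 0 genes of the list were called higher and 3 lower. VAMP2 was lost without DcpS array 2 or non-silencing array 1 or 3, and VAMP4 without DcpS array 1 or 2 or non-silencing array 1 or 2 (limma adjusted p 0.0507 to 0.212 over the settings that lost it). STXBP3 was lost without DcpS array 1 or 3 or any one non-silencing array. SEC22B and VAMP7 were not followed singly through these settings. The number called lower was 3 without non-silencing array 1 and 2 when only the 6 arrays were fitted.

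Phosphoinositide phosphatases, which set the lipid identity of endosomes and the plasma membrane, were called in both directions. Of 19 measured, 2 were higher and 2 lower, beside 1.76% and 1.85% of all genes (median change -0.05). MTM1, the myotubularin gene mutated in X-linked centronuclear myopathy, was at 7.25, 7.05 and 7.20 log2 units in DcpS arrays and 5.99, 6.03 and 6.04 in non-silencing arrays (log2 change 1.15, SE 0.10, limma adjusted p = 1.76e-05). OCRL, the inositol 5-phosphatase gene of Lowe syndrome, rose by 0.53. INPPL1, which encodes the phosphatase SHIP2, was at 7.55, 7.57 and 7.41 in DcpS arrays and 8.29, 8.22 and 8.20 in non-silencing arrays (log2 change -0.73, limma adjusted p = 0.000184). The myotubularin-related gene MTMR6 had a log2 change of -0.57 (adjusted p = 0.00392), which was -0.28 and not called with the mean of its probe sets (adjusted p = 0.110). OCRL and MTMR6 were not called in the fit of 6 arrays (limma adjusted p 0.0669 and 0.0691).

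Ephrins are membrane-bound ligands that signal between touching cells through Eph receptor kinases. Of 21 measured members of both families, 3 were called higher and 0 lower, beside 1.76% and 1.85% of all genes, with a median change of 0.00. The ligand gene EFNA3 was at 8.44, 8.33 and 8.50 log2 units in DcpS arrays and 7.34, 7.40 and 7.59 in non-silencing arrays (log2 change 0.98, SE 0.09, limma adjusted p = 3.35e-05). The receptor gene EPHA3 was at 7.55, 7.29 and 7.50 in DcpS arrays and 6.88, 6.65 and 6.72 in non-silencing arrays (log2 change 0.70, limma adjusted p = 0.00216). The groups did not overlap in either gene. The ligand gene EFNB2 was at 5.61, 6.10 and 5.96 in DcpS arrays and 4.54, 4.85 and 5.43 in non-silencing arrays (log2 change 0.95, adjusted p = 0.0138). Its call was lost without DcpS array 2 or 3 or non-silencing array 1 or 2 (limma adjusted p up to 0.0977).

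Fatty acid genes were called in both directions. ACSL4, which activates polyunsaturated fatty acids such as arachidonic acid, was at 8.93, 8.74 and 8.93 log2 units in DcpS arrays and 8.07, 8.02 and 7.82 in non-silencing arrays (log2 change 0.90, SE 0.11, limma adjusted p = 0.000209). The desaturase gene SCD5 was at 7.35, 6.64 and 7.05 in DcpS arrays and 7.93, 7.98 and 7.92 in non-silencing arrays (log2 change -0.93, limma adjusted p = 0.00163). ELOVL5, which elongates polyunsaturated fatty acids, was at 6.96, 7.11 and 7.24 in DcpS arrays and 7.85, 7.88 and 7.75 in non-silencing arrays (log2 change -0.72, adjusted p = 0.000618). These 3 were the called genes of the 15 measured, beside 3.61% of all genes, and the median change of the 15 was -0.12. SCD5 was at an adjusted p of 0.0503 in limma's fit of 6 arrays. Of 16 measured cholesterol synthesis genes, only INSIG1, which retains the sterol sensor in the endoplasmic reticulum, was called (log2 change -0.77, limma adjusted p = 0.0393). Its arrays overlapped, at 8.09, 8.56 and 8.65 in DcpS and 8.62, 9.40 and 9.58 in non-silencing arrays, and the call was lost without DcpS array 1 or 2 or non-silencing array 2 or 3.

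All 9 measured glycolysis genes had a negative change, with a median of -0.24 log2 units, and 2 were called, beside 3.61% of all genes. The list mean was 7.83 in DcpS arrays, against 7.92, 8.09 and 7.91 in LOC550643, Dcp2 and GAPDH arrays and 8.11 in non-silencing arrays. LDHA, which reduces pyruvate to lactate, was at 5.19, 5.68 and 5.73 in DcpS arrays and 6.09, 6.22 and 6.40 in non-silencing arrays (log2 change -0.70, SE 0.14, limma adjusted p = 0.00860). In the fit of 6 arrays its adjusted p was 0.0915. The mutase gene PGAM1 had a log2 change of -0.61 (limma adjusted p = 0.0203) and was not called without DcpS array 1 or non-silencing array 3. GAPDH, which another siRNA of the series targets, was at 7.14, 7.02 and 7.24 in DcpS arrays and 7.12, 7.17 and 7.30 in non-silencing arrays (log2 change -0.07, adjusted p = 0.862).

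Cell death genes gave 2 falls among the 15 measured members of the BCL2 family, beside 1.85% of all genes. The family's median change was 0.01. PMAIP1, which encodes the proapoptotic protein NOXA, was at 7.51, 7.62 and 7.57 log2 units in DcpS arrays and 8.76, 8.68 and 8.57 in non-silencing arrays (log2 change -1.11, SE 0.10, limma adjusted p = 2.09e-05). BCL2, which protects cells from death, was at 5.34, 5.26 and 5.52 in DcpS arrays and 6.06, 6.13 and 5.91 in non-silencing arrays (log2 change -0.66, limma adjusted p = 0.00402). A proapoptotic and an antiapoptotic gene were thus both lower. BCL2 had a limma adjusted p of 0.0554 when the 6 arrays were fitted with a replicate block. It averaged 5.375 in DcpS arrays and 5.19 in Dcp2 arrays, so its low level was not particular to DcpS siRNA. Of 12 measured p53 target genes, PMAIP1 was called lower and the ribonucleotide reductase gene RRM2B was called higher (log2 change 0.46, limma adjusted p = 0.0228). Over all genes 1.85% were called lower and 1.76% higher. The RRM2B call was lost without DcpS array 1 or 3 or non-silencing array 2 or 3.

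The Hippo pathway restrains growth by keeping the coactivator YAP1 out of the nucleus. Of 20 measured genes, 1 was called higher and 1 lower, beside 1.76% and 1.85% of all genes. AMOT, a scaffold that binds YAP1, was at 6.23, 5.64 and 6.05 log2 units in DcpS arrays and 7.71, 7.40 and 7.09 in non-silencing arrays (log2 change -1.42, SE 0.20, limma adjusted p = 0.000954). YAP1 was at 7.28, 7.36 and 7.37 in DcpS arrays and 6.75, 6.86 and 6.85 in non-silencing arrays (log2 change 0.51, adjusted p = 0.00464). With the YAP1 probe set of highest SD its change was 0.28 and was not called (limma adjusted p = 0.478), so its probe sets disagreed. The YAP1 target genes CCN2 and ANKRD1 had log2 changes of 0.11 and 0.19, neither of them called.

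RNA decay genes, among which DcpS itself belongs, were called in both directions. Over 6 lists of decapping, cap-binding, exosome, deadenylation, nonsense-mediated decay and microRNA genes, 6 of 62 measured genes were called (2 higher and 4 lower). That is 9.68% of them, beside 3.61% of all genes tested. Calls depended on level, at 9.22% of the genes in the brightest of 4 bins by mean level and 4.17% in the next. The list means in DcpS arrays ran from 6.82 to 8.10 log2 units, and a difference from genes of like level was not tested. The calls of DCP2, DCP1B, EXOSC7 and CNOT11 depended on single arrays. Of 13 measured decapping and P-body genes (23 listed), 1 was called higher and 2 lower, with a median change of -0.14. DCP2, the decapping enzyme of long mRNAs, was at 7.34, 7.60 and 7.87 log2 units in DcpS arrays and 7.98, 8.22 and 8.21 in non-silencing arrays. The log2 change of DCP2 was -0.54 (SE 0.13, limma adjusted p = 0.0252), and it was not called without DcpS array 1 or 2 or non-silencing array 2 or 3 (adjusted p 0.0598 to 0.145 over the settings that lost it). DDX6, an RNA helicase of P-bodies, was at 9.36, 9.56 and 9.48 in DcpS arrays and 9.92, 10.10 and 10.05 in non-silencing arrays (log2 change -0.56, limma adjusted p = 0.00482, and 0.0519 in the fit of 6 arrays). DCP1B, a partner of DCP2, was at 6.21, 6.36 and 6.43 in DcpS arrays and 5.87, 5.91 and 5.90 in non-silencing arrays (log2 change 0.44, adjusted p = 0.0140), a call lost without DcpS array 2 or 3. XRN1 had a log2 change of -0.16 and was not called (adjusted p = 0.468).

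The RNA exosome makes the capped remnants on which DcpS acts. Of 19 measured exosome and Ski complex genes, the subunit gene EXOSC6 was called lower, at 7.50, 7.47 and 7.64 in DcpS arrays and 8.11, 8.13 and 7.97 in non-silencing arrays (log2 change -0.54, limma adjusted p = 0.00451). EXOSC7, a further subunit gene, was called higher by 0.32 (adjusted p = 0.0470), a call lost without any one of the 6 arrays. Of the 19, 1 was thus called higher and 1 lower, beside 1.76% and 1.85% of all genes. EXOSC6 was not called in the fit of 6 arrays (limma adjusted p = 0.0553) or without array 1 of both groups (0.0528). It averaged 7.53 in DcpS arrays and 7.41 in LOC550643 arrays, so its low level was not particular to DcpS siRNA. Among 5 measured deadenylase genes CNOT11 was called lower by 0.30 (limma adjusted p = 0.0485). That call too was lost without any one of the 6 arrays, and with replicate number as a block (adjusted p = 0.0658). Limma called 0 of 13 cap-binding and cap-scavenging genes, 2 of which had an unadjusted p under 0.05. FHIT, whose product can also hydrolyse free cap, had a log2 change of 0.15 and EIF4E, the cap-binding translation factor, one of 0.16. Limma also called 0 of 6 nonsense-mediated decay factors and 0 of 6 microRNA pathway genes, with 0 in either list at an unadjusted p under 0.05.

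Short-lived transcripts are the first to decay when transcription is blocked. Of 27 measured, 2 were called higher and 0 lower, beside 1.76% and 1.85% of all genes. JUND, an AP-1 subunit, was at 8.37, 8.47 and 8.77 log2 units in DcpS arrays and 7.52, 7.86 and 8.00 in non-silencing arrays (log2 change 0.75, SE 0.16, limma adjusted p = 0.0132). KLF10, a zinc finger factor gene, was at 8.44, 8.73 and 8.98 in DcpS arrays and 7.54, 8.09 and 8.27 in non-silencing arrays (log2 change 0.75, adjusted p = 0.0462). In both, array 1 was the lowest array of either group. JUND was not called without DcpS array 3 or non-silencing array 1, and KLF10 without DcpS array 2 or 3 or non-silencing array 1 or 2. MYC, FOS and EGR1 had log2 changes of -0.06, -0.21 and -0.05.

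Of 22 measured interferon response genes, IFITM1 was called lower, at 9.13, 9.01 and 8.98 log2 units in DcpS arrays and 9.55, 9.41 and 9.41 in non-silencing arrays (log2 change -0.42, limma adjusted p = 0.0120, and lost without non-silencing array 1). IFITM1 was the only one of the 22 called, beside 3.61% of all genes. Its neighbour in sequence IFITM2, which also restricts viral entry, was at 9.08, 8.52 and 9.10 in DcpS arrays and 10.04, 9.73 and 9.88 in non-silencing arrays (log2 change -0.98, adjusted p = 0.00317). IFITM genes are near-identical in parts, so their probe sets may share signal and their values are uncertain. ISG15 and IFIT1, both strongly interferon-induced, had log2 changes of -0.06 and 0.12 and were not called. Limma called 0 of 18 unfolded protein and stress response genes, 0 of 41 ribosomal protein genes, 0 of 17 aminoacyl-tRNA synthetase genes and 0 of 12 cytosolic chaperone genes. At an unadjusted p under 0.05 these lists had 6, 3, 2 and 2 genes. The heat shock genes HSPA1A and HSPA1B, near-identical copies whose signal may be shared, had log2 changes of 0.68 and 0.70 (limma adjusted p 0.0621 and 0.0645).

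A second comparison set the DcpS mean against the average of the LOC550643, Dcp2 and GAPDH siRNA group means, to show where DcpS siRNA differed from other siRNAs that target a transcript. It shares the DcpS arrays with the first comparison and uses no non-silencing array. In it 580 genes were higher with DcpS siRNA (3.9% of those tested) and 520 lower (3.49%). The 1100 called genes are 7.39% of those tested. Over all genes tested, every DcpS array lay above all 12 other arrays, non-silencing included, in 2.06% and below all of them in 2.04%, or 4.1% in all. Without DcpS array 1 the count of 1100 was 596, with 332 higher and 264 lower, and without DcpS array 2 to 725.

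Many of the large falls appeared against both kinds of control. SHISA2 averaged 6.47 ± 0.17 log2 units in DcpS arrays, against 7.58 ± 0.04, 7.48 ± 0.09 and 7.68 ± 0.10 in LOC550643, Dcp2 and GAPDH arrays and 7.94 ± 0.16 in non-silencing arrays (SD, n = 3 each). Its log2 change against the other 3 siRNAs was -1.11 (SE 0.09, limma adjusted p = 2.83e-06). NSF averaged 6.61 ± 0.06 in DcpS arrays, against 8.04 ± 0.19, 7.54 ± 0.19 and 7.95 ± 0.26 in the same 3 groups (log2 change -1.23, limma adjusted p = 1.03e-05). PMAIP1, GPR180, TARDBP, HAND1, ZYG11B and FAM241A had log2 changes of -1.16, -1.18, -1.05, -1.01, -1.08 and -1.08 in this comparison. In each of these 8 genes every DcpS array lay below all 12 other arrays, which the choice of genes required in both comparisons. Other large falls were smaller here. AMOT, ELMOD2 and HCG11 had log2 changes of -0.76, -0.76 and -0.71, and their DcpS arrays overlapped those of the other siRNAs. Each of these calls was lost without DcpS array 2 (limma adjusted p 0.0706, 0.0528 and 0.288).

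ARRDC4 and CDS1 had the largest falls against the other 3 siRNAs. CDS1, which makes the lipid precursor CDP-diacylglycerol, averaged 6.62 ± 0.25 log2 units in DcpS arrays, against 8.18 ± 0.09 with LOC550643, 7.69 ± 0.07 with Dcp2, 7.84 ± 0.18 with GAPDH and 7.42 ± 0.07 with non-silencing siRNA (SD, n = 3 each). Its log2 change was -1.28 here (SE 0.10, limma adjusted p = 2.73e-06) and -0.80 against non-silencing siRNA (adjusted p = 0.00178). ARRDC4 averaged 8.10 ± 0.40 in DcpS arrays, against 9.81 ± 0.02, 8.71 ± 0.08 and 9.65 ± 0.18 in LOC550643, Dcp2 and GAPDH arrays (log2 change -1.29, limma adjusted p = 7.65e-05). Among the other 3 targeting siRNAs the Dcp2 arrays were the nearest to the DcpS arrays for both genes, but for CDS1 the non-silencing arrays were nearer.

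Rises that separated DcpS siRNA from all other groups included TMEM31, MTM1, EFNA3, ACSL4, EPHA3, YAP1, GPSM2, CEP20 and BLOC1S6, in which every DcpS array lay above all 12 other arrays. TMEM31 averaged 5.35 ± 0.24 log2 units in DcpS arrays, against 4.51 ± 0.11, 4.02 ± 0.12 and 4.07 ± 0.09 in LOC550643, Dcp2 and GAPDH arrays (log2 change 1.15, limma adjusted p = 2.50e-05). MTM1 averaged 7.17 ± 0.10 in DcpS arrays, against 6.53 ± 0.04, 6.43 ± 0.04 and 6.63 ± 0.21 in those groups and 6.02 ± 0.02 in non-silencing arrays (SD, n = 3 each). All 3 other siRNAs thus lay between DcpS and non-silencing for MTM1, whose log2 change here was 0.64 (limma adjusted p = 0.000202). HMMR changed by 1.00 log2 units (adjusted p = 0.000181), the matrix protein gene THBS4 by 0.85, SHISA3 by 0.93 and SUMF2 by 0.86. Against non-silencing siRNA SHISA3 was not called (limma adjusted p = 0.110), and the calls of THBS4 and SUMF2 depended on single arrays.

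KRCC1 and IMPACT, an inhibitor of the kinase GCN2, had log2 changes of 1.41 and 0.95 against the other 3 siRNAs (limma adjusted p 0.00534 and 0.00186) and were not called against non-silencing siRNA. With replicate number as a block IMPACT was called in the comparison with non-silencing siRNA as well (limma adjusted p = 0.0497). KRCC1 was at 6.14, 5.17 and 5.61 in DcpS arrays and 5.51, 4.66 and 4.12 in non-silencing arrays, so those groups overlapped, and without DcpS array 1 it was not called against the other 3 either (adjusted p = 0.0523). CABCOCO1 changed by 1.14 and LOC100130691 and KIAA1143 by 0.85 each against the other 3 siRNAs. Against non-silencing siRNA LOC100130691 was not called (limma adjusted p = 0.174). The calls of CABCOCO1 and KIAA1143 there depended on single arrays, and CABCOCO1 had overlapping groups.

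Several of the largest rises against non-silencing siRNA were not seen against the other siRNAs. TPM4 averaged 8.87 ± 0.13 log2 units in DcpS arrays, against 8.69 ± 0.13, 8.85 ± 0.08 and 8.62 ± 0.10 in LOC550643, Dcp2 and GAPDH arrays and 7.54 ± 0.21 in non-silencing arrays (SD, n = 3 each). Its log2 change against the other 3 was 0.15 (SE 0.09, limma adjusted p = 0.403). HABP4 averaged 7.32 ± 0.01 in DcpS arrays, above the 6.52 ± 0.12 of non-silencing arrays but below the 7.77 ± 0.05, 7.76 ± 0.04 and 7.83 ± 0.16 of the other 3 groups. Against these it was lower by 0.47 (limma adjusted p = 0.00116), so its direction depended on the control. MED11, G3BP2, ZNF267, STX12, JUND and KLF10 had log2 changes of 0.01, -0.14, 0.41, 0.08, 0.15 and 0.16 there, none of them called. EFNB2 and CNEP1R1, at 0.44 and 0.35, were not called there either (limma adjusted p 0.133 and 0.203). NOLC1 averaged 8.96 in DcpS arrays, against 8.84, 8.93 and 8.30 in LOC550643, Dcp2 and GAPDH arrays and 7.94 in non-silencing arrays. Its log2 change against the other 3 was 0.27 (limma adjusted p = 0.0191), with overlapping groups, and that call was lost without DcpS array 1 or 3. Of the falls, IGFBP5 (-0.26), DIAPH1 (-0.12) and DCP2 (-0.16) were not called against the other 3, one of whose groups had DCP2 itself targeted. DCP2 averaged 7.60 ± 0.27 in DcpS arrays, against 8.54 ± 0.13 in LOC550643, 6.34 ± 0.10 in Dcp2 and 8.40 ± 0.12 in GAPDH arrays. GAPDH was called higher by 0.33 against the other 3 (limma adjusted p = 0.0422), 1 of whose groups had GAPDH itself targeted. It averaged 7.13 in DcpS arrays, against 7.20 in LOC550643, 7.23 in Dcp2 and 5.97 in GAPDH arrays.

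**Figure D5:**
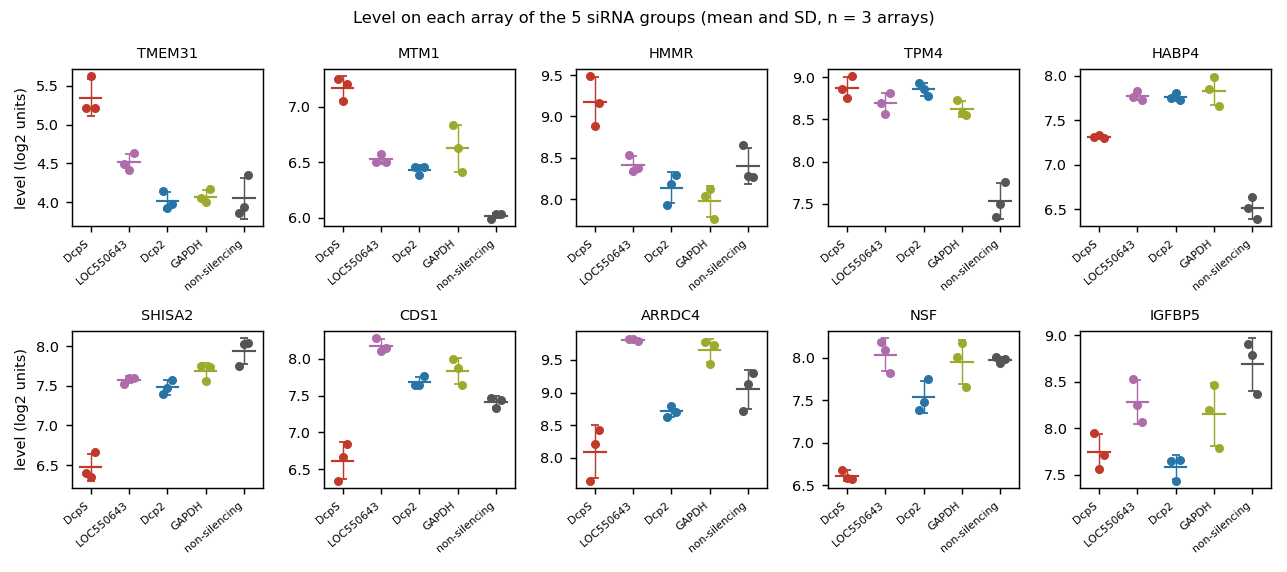
Level in log2 units (y axis) on each array of the DcpS, LOC550643, Dcp2, GAPDH and non-silencing groups for 10 genes, with the mean and SD of 3 arrays. The DcpS arrays lie apart from all 12 others for TMEM31, MTM1, HMMR, SHISA2, CDS1, ARRDC4 and NSF, whereas for TPM4 and HABP4 the non-silencing arrays lie apart and for IGFBP5 the groups grade into each other.

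The cell cycle lists kept their direction against the other 3 siRNAs. Of the 44 G2 and M genes, 23 were called higher and 0 lower, beside 3.9% and 3.49% of all genes, with a median change of 0.30 log2 units, beside 0.00 over all genes. The list mean was 8.97 log2 units in the DcpS group, against 8.65, 8.78 and 8.48 in LOC550643, Dcp2 and GAPDH arrays and 8.55 in non-silencing arrays. KIF20A averaged 9.72 ± 0.04 in DcpS arrays, against 9.12 ± 0.12, 9.40 ± 0.09 and 8.12 ± 0.32 in LOC550643, Dcp2 and GAPDH arrays (SD, n = 3 each). Of the 28 G1/S and replication genes, 11 were called lower and 1 higher, beside 3.49% and 3.9% of all genes, with a median of -0.24. Those lower included MCM3 (-0.55, limma adjusted p = 0.000105) and, named after their values were seen, the phosphatase gene CDC25A (-0.64), the loading factor gene CDC6 (-0.61), the cyclin gene CCNE2 (-0.58) and E2F1 (-0.38). SLBP was again the gene called higher, by 0.74 (adjusted p = 2.38e-05). It averaged 9.49 ± 0.03 in DcpS arrays and 8.10 ± 0.08 in GAPDH arrays, the lowest of the other groups. Of the 30 vesicle fusion genes, 5 were called lower and 2 higher. The 9 glycolysis genes, all negative against non-silencing siRNA, had 5 negative and 4 positive changes here, with a median of -0.07 log2 units. Of these, 2 were called lower and 1 higher.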

How the data were processed

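The deposited table holds 1 value per probe set and array on a log2 scale, as the authors made it. RMA (background correction, quantile normalization and probe summary) and oligo are named per the submitters' processing notes, and for their versions and the array's genome build nothing is given in the sources used here. The log base was read from the range of the values. Probe sets were named from the platform annotation, and 37519 unnamed ones were tested apart. Groups and replicate numbers came from the sample titles. Limma 3.58.1 in R 4.3.3 fitted 1 mean per siRNA group over 15 arrays (10 residual degrees of freedom). Tests were two-sided, with Benjamini-Hochberg adjustment over 14884 genes in each of 2 comparisons. On simulated data for DcpS against non-silencing over 14884 genes, the fit recovered 90% of changes of 1 log2 unit and 35% of those of 0.5, and 5.303% of its calls were false. The simulated noise was normal and independent between genes and arrays, with 100 genes changed at each size. It held no shift shared by the genes of an array, such as that of array 1. The false share is therefore not that of the calls made here.

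The text names the targeted genes, the largest called changes each way, 20 in the non-silencing comparison and 10 in that with the other 3 siRNAs, among genes whose groups did not overlap, and up to 6 called members of each of 30 gene lists (small RNAs and olfactory receptors left out of the largest changes). Genes not called that are given for comparison were picked after their values were seen. The members and lists were chosen with earlier results of these data known. The deviations of same-numbered DcpS and non-silencing arrays from their group means correlated at 0.394, 0.110 and 0.124 over genes. Other pairs of groups reached 0.324 (LOC550643 with non-silencing, replicate 3), so only the value of array 1 lay above these. The labels give no pairing, it remains uncertain, and the main fit did not use it. Alternatives were a replicate block, the 6 arrays alone, median centring, quantile normalization again, other probe set rules, leaving out dim genes, a variance trend, array weights and leaving out each array. The number of arrays limits the precision.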

Additional observations from a re-analysis of the deposited data

Results flagged for a closer look

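Probe sets with no gene name here were outside the comparisons above, and 137 of these 37519 were called in DcpS against non-silencing siRNA by the same limma fit (adjusted over the unnamed probe sets), which is 0.365% of them. Of the 137, 45 were higher and 92 lower with DcpS siRNA. What these probe sets measure is not analysed here, and groups of 3 arrays are too small for a search for single outlying arrays.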

How the results depend on the processing

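Against non-silencing siRNA, 262 genes higher and 276 lower became 40 and 64 (104 in all) when only the 6 arrays were fitted, which has fewer residual degrees of freedom. They became 93 and 98 (191) when those 6 were fitted with a replicate block and 118 and 123 (241) without replicate 1 of both groups, and these alternatives were chosen after seeing the data. Leaving out 1 of the 6 arrays in turn gave 276 to 466 genes, with 130 to 247 higher and 146 to 254 lower. Against the other 3 siRNAs the range over arrays left out was 596 to 1117, with 332 to 620 higher and 264 to 497 lower. With the replicate block alone the first count was 595 (300 higher, 295 lower). The block ended the calls of CNOT11 and, against the other 3 siRNAs, GAPDH (adjusted p = 0.0577), made IMPACT a call, and changed no other call of a named gene. Leaving out 1 array of the other 3 siRNA groups gave 459 to 527, and the other settings over all arrays gave 494 (median centring) to 782 (filter on dim genes). No named gene that was called changed direction in any setting. Calls depended on level: of 3721 genes in each of 4 bins by mean level, 0.161% were called in the dimmest bin and 9.22% in the brightest.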

Other observations

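By RefSeq gene type, protein-coding genes were called at 255 higher and 246 lower of 11916 tested in DcpS against non-silencing siRNA. Long noncoding RNAs were called at 5 higher and 20 lower of 1398, and microRNA genes at 2 and 2 of 1072, though an array of this kind measures their host or precursor transcripts and not mature microRNAs. The share of lower calls among the long noncoding RNAs was not tested against that of coding genes.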
